A study of Mus musculus with 48 samples.

Results

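Small nucleolar RNAs (snoRNAs) are short stable RNAs that guide chemical changes of other RNAs, mostly ribosomal RNA, in the nucleolus. Those with C and D boxes (gene symbols Snord) direct 2'-O-methylation with fibrillarin, Nop56, Nop58 and Snu13, and those with H and ACA boxes (Snora) direct conversion of uridine to pseudouridine with dyskerin, Nhp2, Nop10 and Gar1. A few act in cleavage or folding of the ribosomal RNA precursor instead, and most mouse snoRNAs are cut out of introns of host genes. The genes described here are the array rows whose annotation gives exactly 1 symbol, and that symbol is Snord or Snora followed by a number, with a mean over all arrays of at least 5.05 on the log2 scale, the 30th percentile of all rows. The rule found 65 genes, 40 C/D and 25 H/ACA, among 73 Snord and Snora genes with 1 symbol and among 17274 genes tested in all. The 8 genes below the limit had means from 3.46 (Snord19) to 4.77 (Snord1b), with Snord85 at 4.63 and Snora19 at 4.62 next to the limit, and the 3 members nearest above it were Snora2b at 5.21, Snord37 at 5.37 and Snord43 at 5.38. Rows with several symbols are outside the rule; 43 of them held a snoRNA, 16 of these Snord116, the imprinted brain snoRNA cluster.

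The animals were male C57BL/6 mice under a 12-h light and dark cycle, the labels name no treatment, and the age was not given in the sources used here. The 4 tissues, cut from brain slices, were the habenula (HAB), the striatum (STR), the prefrontal cortex (PFC) and the substantia nigra joined with the ventral tegmental area (SN/VTA). Each was sampled at zeitgeber time (ZT, hours after lights on) 3, 7, 11, 15, 19 and 23. Each time was collected in 2 successive 24-h cycles, replicate 1 in the first and replicate 2 in the second, which gives 12 arrays per tissue and 48 in all. Each array held RNA pooled from 3 mice, so errors describe the variation among pools, and precision is limited by how many arrays there are.

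Array medians ran from 5.84 to 6.07. The genes chosen to mark each tissue were called higher in that tissue for 4 of 4 in SN/VTA, 4 of 4 in PFC and 4 of 4 in HAB; for STR all 3 measured were. HAB also held called signal of neighbouring choroid plexus (3 of 5 markers), thalamus (3 of 4) and hippocampus (4 of 4), while 4 of 5 oligodendrocyte markers were lower in PFC. In HAB the arrays of ZT11 in the first cycle and ZT19 in the second stood apart: the median deviation of the C/D genes from their own 48-array means was -1.03 on each, against -0.15 to -0.68 on the other 10. Results that rest on HAB are therefore also given without these arrays. Whole-tissue RNA does not tell fewer cells of a type from less RNA per cell, and any step done tissue by tissue cannot be told apart from tissue. A probe set of this array does not separate the mature snoRNA from its stretch of unspliced host RNA.

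By the RefSeq gene table (GRCm38.p6), 62 of the 65 members lie inside a host gene and 3 do not: Snord118, Snord13 and Snord89. The annotated length ran from 48 to 221 bases, with a median of 68 for C/D and 119 for H/ACA members. The snoRNA sequences themselves were not used here. Of 56 host genes, 43 had a promoter in the RefSeq set, with 47 entries. The promoters of 5 hosts are shown because their introns hold members that carry the results below: Nop56 holds Snord110, Snhg1 holds Snord22, Snhg12 holds Snord99 with Snora16a, Snora44 and Snora61, Rbmx holds Snord61, and Ncl holds Snora75 with Snord82. Each is the 80 bases just before the annotated start, read 5′ to 3′ on the strand of the gene in GRCm38.p6, with capitals where the letters TATAA or, for the other strand, TTATA occur.
Nop56, chr2:130274332-130274411, plus strand: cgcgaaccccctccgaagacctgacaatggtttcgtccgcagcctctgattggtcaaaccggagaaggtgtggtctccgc
Snhg1, chr19:8723407-8723486, plus strand: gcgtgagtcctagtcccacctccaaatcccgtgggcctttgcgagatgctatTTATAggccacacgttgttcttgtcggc
Snhg12, chr4:132308598-132308677, plus strand: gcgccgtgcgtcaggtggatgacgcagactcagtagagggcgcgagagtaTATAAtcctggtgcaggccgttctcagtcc
Rbmx, chrX:57393037-57393116, minus strand: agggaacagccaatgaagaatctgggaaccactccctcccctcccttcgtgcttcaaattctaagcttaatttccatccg
Ncl, chr1:86359456-86359535, minus strand: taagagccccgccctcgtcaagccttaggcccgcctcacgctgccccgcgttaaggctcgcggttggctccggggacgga
These letters stood in 14.9% of the host windows of 80 bases and in 8.74% of all 32851 such windows, and the motif was picked after the sequences were seen. The E-box CACGTG, the letters that CLOCK and BMAL1 bind, reads the same on both strands and cannot overlap with TATAA or TTATA. It was absent from the 300-base windows of all 5 hosts shown, and stood in 9 of the 47 host windows of that length (19.1%) and in 7.15% of all. A match of letters is a description of the sequence only.

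The first comparison asked how the snoRNA genes differ between the 4 tissues. PFC stood apart: 21 of the 65 members were higher there and 5 lower, where a call needs an adjusted p under 0.05 (limma, Benjamini-Hochberg over all 17274 genes) and a difference of at least 1 on the log2 scale from the mean of the other 3 tissues. Over all genes tested 2.33% were called higher in PFC and 2.94% lower. The higher group held 17 of 40 C/D members and 4 of 25 H/ACA members, and the lower group held 0 C/D and 5 H/ACA members. For 4 of the members called higher (Snord61, Snord58b, Snord111 and Snord73a) the mean over the other 3 tissues lay under the limit of 5.05. They became members only through their PFC level and so had to differ; without them 17 of 61 members were called higher. With no filter on low levels, 26 of all 73 genes were called higher and 5 lower. The median difference in PFC was 0.88 for C/D members, 0.27 for H/ACA members and -0.05 over all genes tested. The C/D median includes the 4 genes that became members only through PFC. The difference between the 2 classes was not tested.

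The 4 largest differences belonged to C/D genes, all from different hosts. Snord61, which guides a methylation of 18S ribosomal RNA and lies in an Rbmx intron, had a lowest, median and highest log2 level of 9.73, 9.98 and 10.13 in PFC. In SN/VTA its level ran from 4.06 to 4.98, in STR from 4.24 to 5.35 and in HAB from 4.22 to 5.26. All 12 PFC arrays thus lay above all 36 others, by 5.22 ± 0.09 (SE) on the log2 scale. No fold or p is given for the members that reached the limit only through PFC, since it is unknown how far their levels elsewhere lie above background.

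Snord110, an 18S methylation guide from a Nop56 intron, ran from 11.02 to 11.32 in PFC with a median of 11.22. Its medians elsewhere were 6.42 in SN/VTA, 5.91 in STR and 5.72 in HAB, and its highest level outside PFC was 6.71. The difference in PFC was 5.17 ± 0.06 (36.1-fold, adjusted p = 1.18e-31). Nop56 codes for a core protein of the C/D particle, so this guide and its own particle's protein come from the same transcript.

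Snord58b, a 28S methylation guide from Rpl17, ran from 9.29 to 9.71 in PFC with a median of 9.55. Its medians elsewhere were 4.13 in SN/VTA, 4.86 in STR and 4.45 in HAB, so that no array outside PFC came near that range. The difference was 5.06 ± 0.08, again from a member that reached the limit only through PFC. Snord22, known as U22 and needed for 18S maturation, ran from 10.66 to 10.95 in PFC against a highest level of 6.18 elsewhere. Its difference was 4.88 ± 0.05 (29.4-fold, adjusted p = 2.33e-34). It is the 1 member measured of the set in Snhg1 introns.

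**Figure D1:**
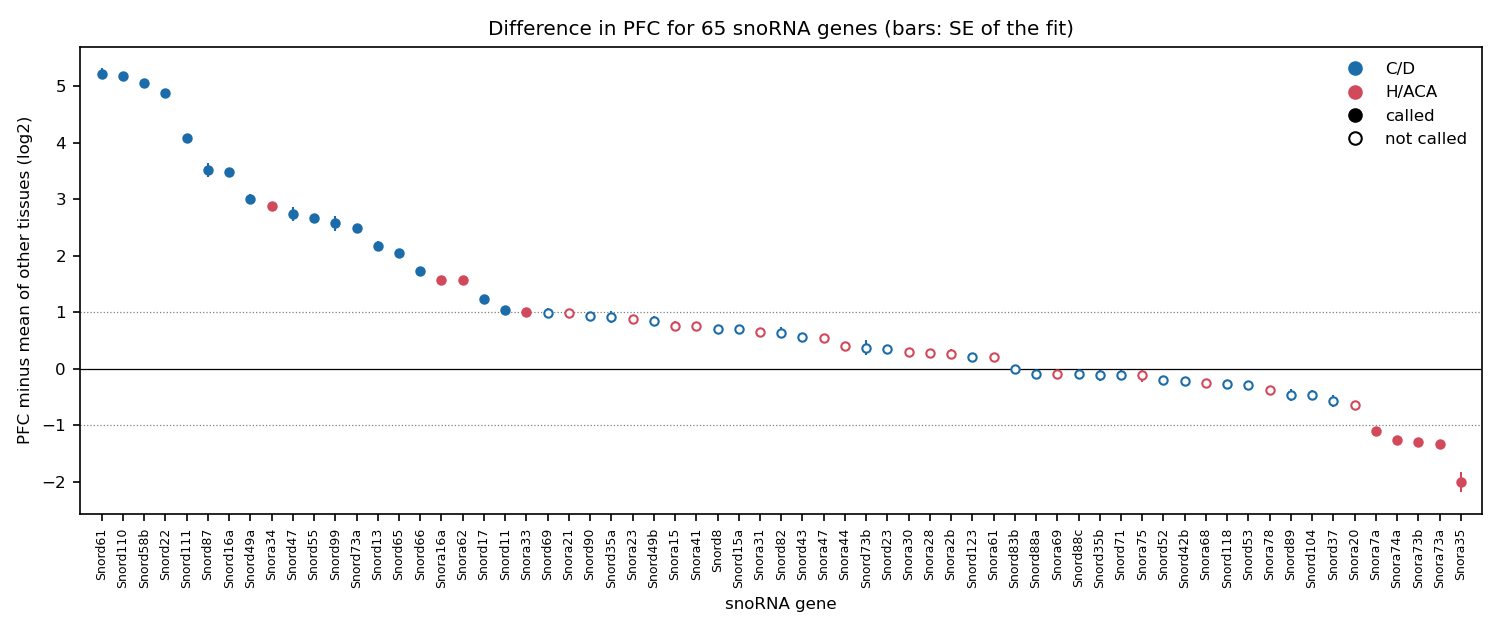
Difference between PFC and the mean of the other 3 tissues (vertical axis, log2) for each of the 65 snoRNA genes (horizontal axis), blue for C/D and red for H/ACA, filled where called, with bars for the SE of the limma fit; dotted lines mark 1 and -1. The 4 highest, all C/D, lie between 4.88 and 5.22, and the 5 called lower are all H/ACA.

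The next 4 C/D genes were higher in PFC by smaller amounts. Snord111 had a mean of 8.99 ± 0.18 (SD, n = 12) in PFC against 4.90 over the other tissues, Snord87 10.92 ± 0.08 against 7.41, Snord16a 10.20 ± 0.24 against 6.72, and Snord49a 9.84 ± 0.17 against 6.84. The difference was 4.08 for Snord111, and the folds of the other 3 were 11.4, 11.2 and 8.03. Each had all 12 PFC arrays above every other array. The highest H/ACA member was Snora34, a pseudouridine guide from Kansl2, at 11.79 ± 0.11 in PFC against 8.91 elsewhere (7.38-fold, adjusted p = 2.78e-25). Snord13, known as U13 and needed for acetylation of 18S ribosomal RNA, has no host and was also higher in PFC, at 8.90 ± 0.45 against 6.73 (4.51-fold, adjusted p = 2.73e-19).

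In all, 24 members had every PFC array above every other array, 19 C/D and 5 H/ACA, against 7.49% of all genes tested. The 24 include Snord61, Snord58b, Snord111 and Snord73a, which reached the limit only through PFC and so had to lie high there. At the other end of the higher calls, Snora33 differed by 1.01 ± 0.07 in PFC, and the first members short of the limit were Snord69 at 0.99 ± 0.10 and Snora21 at 0.98 ± 0.05.

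The 5 members lower in PFC were all H/ACA. Snora35, from an intron of the serotonin receptor gene Htr2c and known as a snoRNA of the brain, had a median of 6.20 in PFC (range 5.86 to 6.45) against 7.97 in SN/VTA, 8.60 in STR and 8.27 in HAB. Every PFC array lay below every other array, by 2.01 in the mean (difference -2.01 ± 0.18, 4.02-fold, adjusted p = 2.27e-11). Such non-overlap was found for 3 of the 65 members and for 6.77% of all genes tested. Snora73a and Snora73b are the mouse forms of U17, which acts in cleavage of the 18S precursor, and both lie in Snhg3. Their differences in PFC were -1.33 ± 0.05 and -1.29 ± 0.06, and those of Snora74a and Snora7a were -1.27 ± 0.08 and -1.10 ± 0.06. Probes for Snora73a and Snora73b, which are close copies, may share signal.

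**Figure D2:**
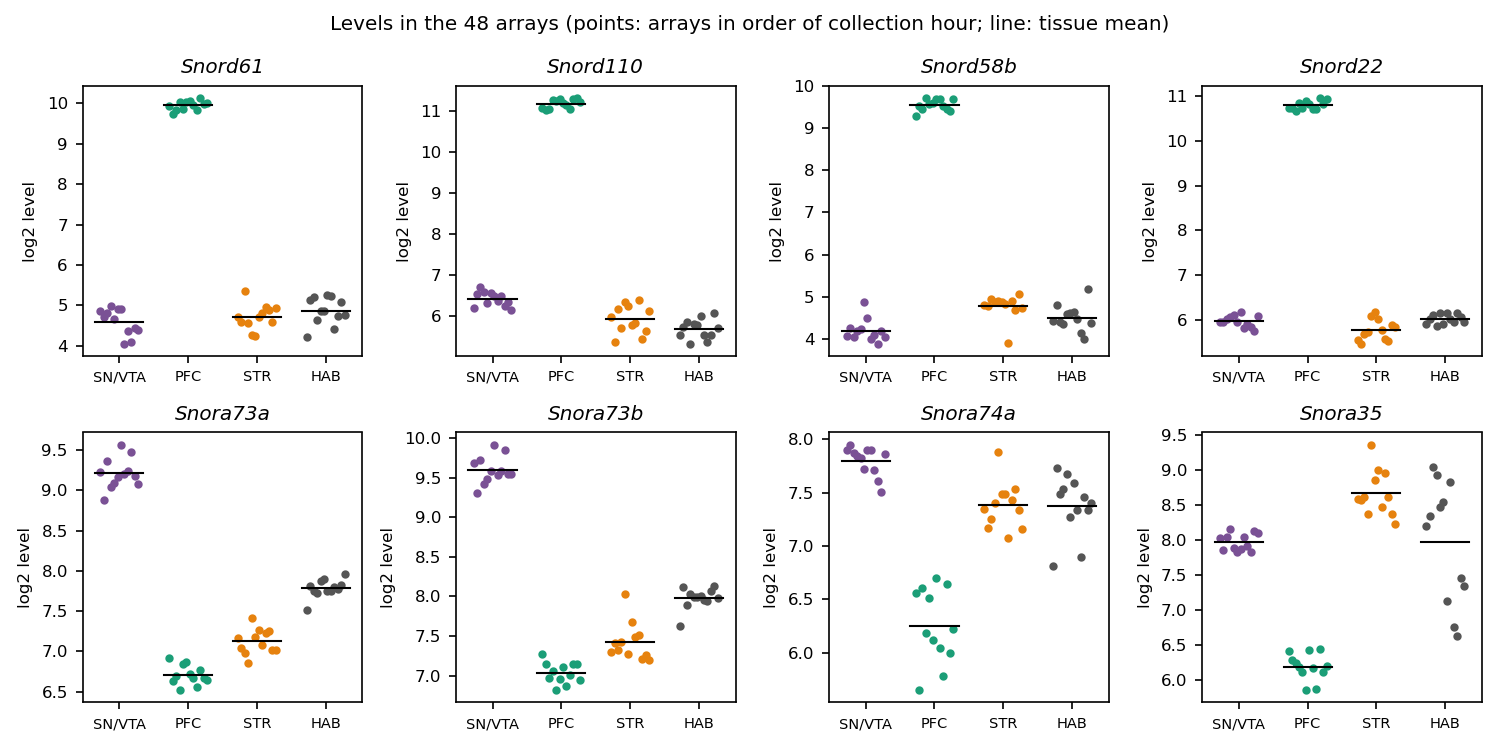
Log2 level (vertical axis, each panel with its own scale) of 8 snoRNA genes in the 48 arrays by tissue, points in order of collection hour and a line at the tissue mean. In the upper panels the PFC arrays lie apart from all others; Snora73a and Snora73b are highest in SN/VTA, and Snora35 spreads widely in HAB, from 6.63 to 9.04.

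Since each tissue is set against the other 3, a gene high in PFC is low elsewhere by construction. SN/VTA had 2 members called higher and 9 lower (2.25% and 1.3% of all genes), STR 1 and 10 (1.02% and 1.16%), and HAB 0 and 13 (1.4% and 0.677%). With the fold limit dropped, 49 members in SN/VTA, 58 in PFC, 50 in STR and 47 in HAB passed the adjusted p, against 73.4%, 74.8%, 75% and 67.4% of all genes, so that in SN/VTA, STR and HAB the share of members that differ at all was near the background.

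With PFC left out and each tissue set against the other 2, the lower calls mostly ended. SN/VTA then had 5 higher and 0 lower (1.71% and 1.26% of all genes), STR 1 and 3 (1.23% and 1.66%), and HAB 0 and 1 (1.49% and 0.753%). This comparison was chosen after the data were seen. Of the 35 calls in these 3 tissues, 7 changed sign without PFC: Snord22 and Snord110 in SN/VTA, Snord58b in STR, and Snord58b, Snord61, Snord22 and Snord111 in HAB. Over all 65 members, called or not, 16 changed sign in SN/VTA, 12 in STR and 16 in HAB.

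The 2 members called higher in SN/VTA were Snora73a and Snora73b. Snora73a ran from 8.88 to 9.57 there, against highest levels of 7.42 in STR and 7.96 in HAB, and differed by 2.00 ± 0.05 (4.01-fold, adjusted p = 3.72e-24). Snora73b differed by 2.11 ± 0.06 (4.33-fold), and both had all 12 SN/VTA arrays above all others. Such non-overlap in SN/VTA was found for 3 of the 65 members and for 8.9% of all genes tested. Without PFC, their differences in SN/VTA were 1.75 and 1.89. The other 3 members higher there without PFC were Snora34, Snord99 and Snora15, a guide from the chaperonin gene Cct6a, at 1.15, 1.13 and 1.04.

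The largest lower differences in SN/VTA were those of Snord58b (-2.08), Snord111 (-1.92), Snord61 (-1.91), Snord16a (-1.73), Snord22 (-1.56) and Snord110 (-1.18), all among the genes highest in PFC. Snord8, from Chd8, had all 12 SN/VTA arrays below every other array (8.22 ± 0.09 against 9.23, difference -1.004 ± 0.049). This was so for 2 of the 65 members and for 2.25% of all genes tested. Without PFC the difference of Snord8 was -0.87. Snord55 had -1.08 ± 0.03 with PFC and -0.21 without it. After each array was centred on its median, Snord8 had -0.86 and Snord55 -0.93, both short of the limit of 1, and Snord8 had -0.99 without the pair of HAB arrays.

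In STR the 1 member called higher was Snora35, at 8.66 ± 0.32 (difference 1.28 ± 0.18, adjusted p = 2.64e-07), and without PFC this difference was 0.69, under the limit. With PFC kept, the largest lower differences in STR were those of Snord110 (-1.84), Snord22 (-1.82), Snord61 (-1.75), Snora34 (-1.59), Snord87 (-1.39), Snord49a (-1.36), Snord16a (-1.35) and Snord58b (-1.30). The members called lower in STR without PFC were Snora73a, Snora73b and Snora15, at -1.37, -1.36 and -1.07, and the 1 higher was Snora23, from Ipo7, at 1.07. The median over the members in STR was -0.04 and 0.0022 after quantile normalization, so its sign depends on the scaling.

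In HAB the lowest member was Snord99, a 28S methylation guide from Snhg12. Its level there had a lowest, median and highest value of 6.41, 8.41 and 9.06, against ranges of 10.14 to 10.46 in SN/VTA, 11.90 to 12.24 in PFC and 9.70 to 10.28 in STR. All 12 HAB arrays lay below all others (difference -2.49 ± 0.13, 5.62-fold, adjusted p = 4.32e-16). This was so for 3 of the 65 members and for 0.863% of all genes tested. Snord99 was the 1 member called lower in HAB without PFC, at -1.84 ± 0.16. Without the pair of HAB arrays that stood apart, and with PFC kept, the difference was -2.16, and the count of members lower in HAB was 11 in place of 13. Other members called lower in HAB with PFC kept were Snord110 (-2.15), Snord58b (-1.68), Snord61 (-1.56), Snord22 (-1.50) and Snora34 (-1.35).

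Snord47, the 1 measured member of the Gas5 introns, ran from 6.63 to 8.69 in HAB and from 10.92 to 11.30 in PFC. Its difference in HAB was -1.64 ± 0.12, and -1.40 without these arrays. Snord87 from Snhg6 had -1.38 ± 0.12 in HAB and -1.10 without them. With all tissues pooled and the pair of HAB arrays that stood apart kept, the median within-tissue SD of the members was 0.22. Over all genes tested it was 0.14. These medians were not taken tissue by tissue or without that pair, so the part of HAB in the wider spread was not tested.

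**Figure D3:**
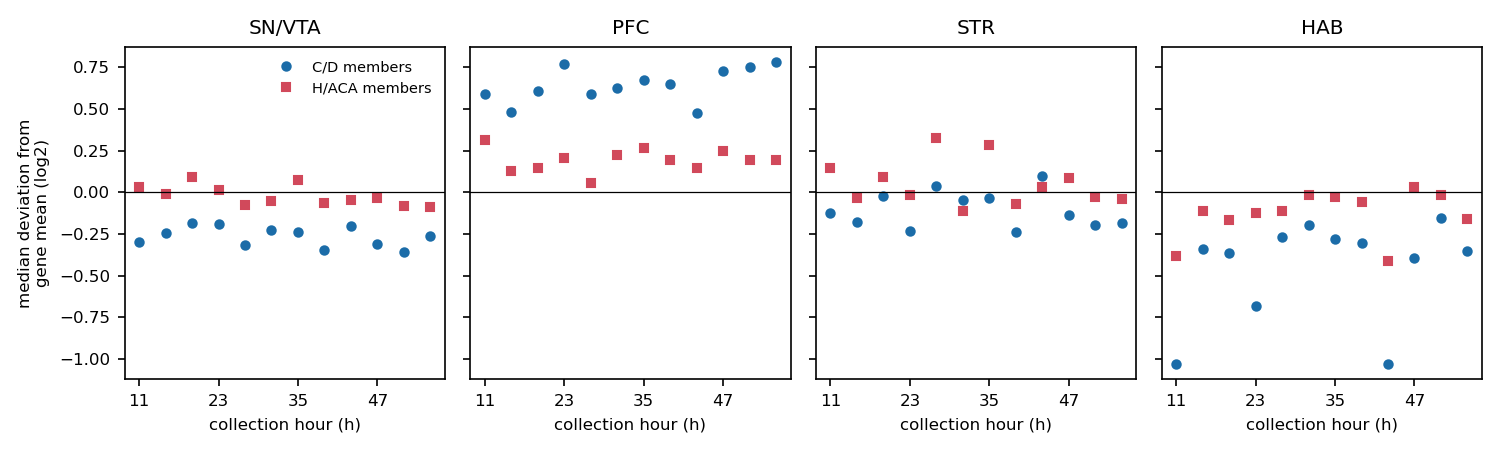
Median deviation of the C/D (blue circles) and H/ACA (red squares) members from their own means over the 48 arrays (vertical axis, log2) against collection hour (horizontal axis), 1 panel per tissue. C/D medians lie between 0.47 and 0.78 in PFC and at or under 0.10 elsewhere, and 2 HAB arrays reach -1.03.

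The hosts of the members differed in PFC over a narrower range than the members. Of 44 host genes tested, 3 were called higher in PFC (Nop58, Rps12 and Snhg6) and 3 lower (Htr2c, Nop53 and Rpl39). Over all genes tested 2.33% were called higher there and 2.94% lower. The host differences had a median of 0.06 and a range from -1.29 to 1.45. Among the 17 members called higher in PFC that had a tested host, the host was also called higher for 3 (Snord11, Snora33 and Snord87), and its difference was negative for 6. The 17 include Snord61, Snord58b, Snord111 and Snord73a, which became members only through PFC, so their own difference was built in. The hosts of Snord58b and Snord111 are among those with a negative difference. The counts were not made without these members. Nop56 differed by 0.55 ± 0.03 where Snord110 differed by 5.17. Rbmx differed by 0.60 ± 0.03, Snhg1 by -0.44 ± 0.04 where Snord22 differed by 4.88, and Rpl17 by -0.24 ± 0.05 where Snord58b differed by 5.06. Levels of a member and its host come from different probe sets, so only their differences between tissues are set side by side.

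Members of the same host also differed from each other; these groups were picked after their values were seen. In Snhg12 the differences in PFC were 2.57 for Snord99, 1.58 for Snora16a, 0.41 for Snora44 and 0.21 for Snora61, while Snhg12 itself had 0.60. In the host 2410006H16Rik they were 3.01 for Snord49a, 2.05 for Snord65 and 0.84 for Snord49b, against -0.55 for the host. Kansl2 had 0.05 with 2.88 for Snora34 and 0.26 for Snora2b, and Rps3a1 had 0.78 with 2.49 for Snord73a and 0.37 for Snord73b. In each of these hosts 1 member moved by at least 1 more than another, which for Rps3a1 rests on Snord73a. Snord73a became a member only through PFC, so its own difference was built in.

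Across the 48 arrays the correlation of a member with its host had a median r of 0.2 over 55 pairs, from -0.74 to 0.93; arrays share tissue, so r mostly follows the tissue means, and within tissues its median was 0.08. The highest were Snora7a with Rpl32 at 0.93 and Snord110 with Nop56 at 0.92, and within tissues these were 0.28 and -0.06. As a description, the r of annotated length with the difference in PFC was -0.32 over the 65 genes, -0.09 within C/D and -0.29 within H/ACA. The 5 H/ACA members lower in PFC had a median length of 198 bases (119 to 205), against a range of 61 to 184 for the 16 not called and a median of 124 (105 to 136) for the 4 higher. Among C/D members the medians were 64 bases for the 17 higher and 72 for the 23 not called. The 17 include Snord61, Snord58b, Snord111 and Snord73a, which became members only through PFC. These genes also enter the r over the 65 genes and the r within C/D.

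**Figure D4:**
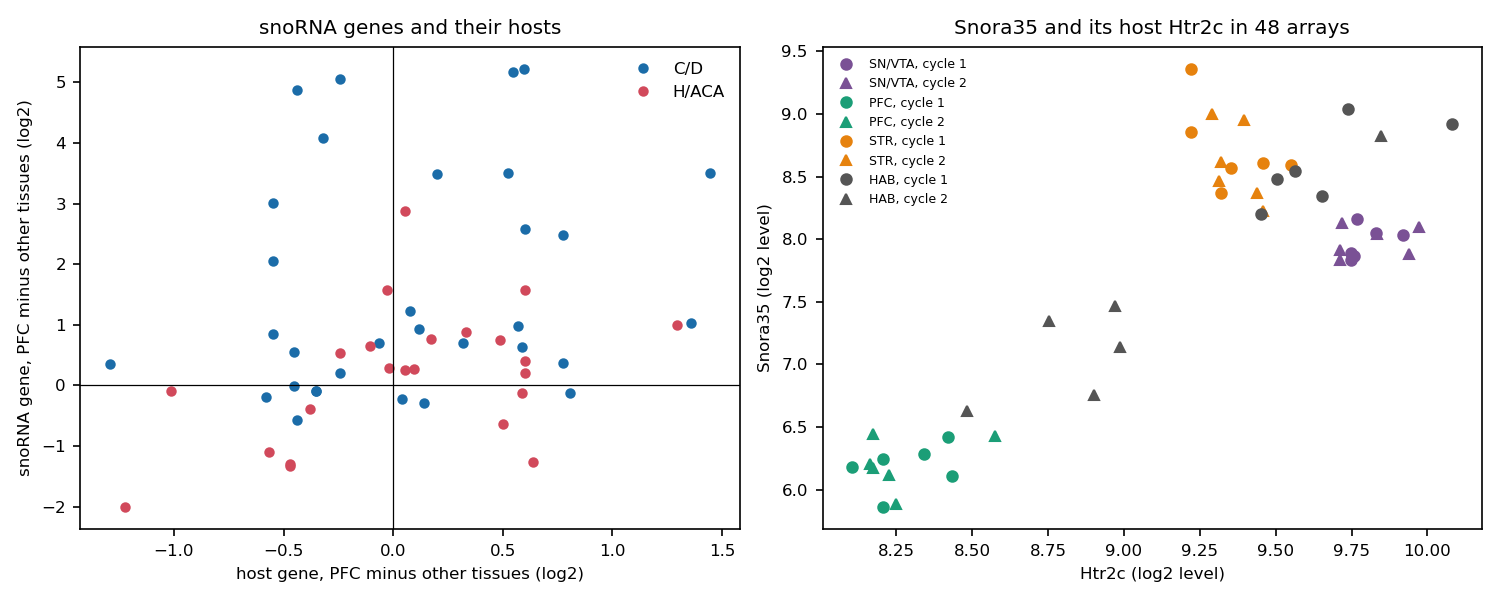
Left, difference in PFC of the snoRNA gene (vertical axis, log2) against that of its host (horizontal axis, log2) for 55 pairs, blue for C/D and red for H/ACA. Right, Snora35 against Htr2c (log2 levels) in the 48 arrays, coloured by tissue, circles for the first and triangles for the second cycle; hosts stay between -1.29 and 1.45 while members reach 5.22, and in HAB both genes of the right panel spread together.

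Genes for the protein parts of the particles were set beside all genes tested, of which 5.27% were called in PFC in either direction. Whether these lists differ from all genes was not tested. Of 4 measured genes listed as C/D core proteins 1 was called higher, Nop58 at 1.36 ± 0.04. Nop56 had 0.55, Snu13 -0.92 and Rrp9 -0.39, and the median was 0.08. Rrp9 is not one of the C/D proteins named at the start, and fibrillarin was not among the genes measured. Of 6 genes listed as H/ACA core proteins 0 were called, with a median of 0.06 (Dkc1 0.20, Gar1 -0.22, Nhp2 0.34). None of 10 genes for snoRNA particle assembly and transport was called, and of 17 genes for ribosomal RNA synthesis and early ribosome assembly 1 was, Imp3 at -1.17. All 4 lists had 0 calls in SN/VTA, STR and HAB, against 3.55%, 2.18% and 2.08% of all genes tested. A wider list of 49 snoRNA host genes had 6 called higher and 2 lower in PFC, against 2.33% and 2.94% of all genes tested. Of 9 long RNAs of the nucleus 0 were called.

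RefSeq lists 7 further tested genes as snoRNAs under symbols outside the rule. Of these, 4 were called higher in PFC and 0 lower, with a median of 1.07: AF357355 (2.10), AF357426 (1.61), DQ267101 (1.46) and AF357425 (1.07). Among other kinds of short RNA, calls in PFC went both ways. Of 6 measured small Cajal body RNAs and telomerase RNA, Scarna10 was called higher (3.11 ± 0.05) and Scarna6 (-1.57 ± 0.06) and the telomerase RNA Terc (-3.07 ± 0.07) lower. Of 9 other short structural RNAs, the Y RNA gene Rny1 was called higher (2.37 ± 0.13) and Rnu12 (-1.58 ± 0.08) and Rprl2 lower. Among 247 microRNA genes 6.48% were called higher and 3.64% lower, and among 1202 long noncoding genes 1.25% and 1.33%. The 5 members listed for ribosomal RNA cleavage or 18S maturation split in the same way. Snord22 and Snord13 were higher, Snora73a and Snora73b lower, and Snord118 (U8) was at -0.27 ± 0.07. Rnu3a, a gene of the U3 snoRNA, was outside this list and was counted among the 9 short structural RNAs. Its difference in PFC was -0.17 (limma, adjusted p = 0.202), and it was not called. The Rpl13a introns held 1 measured member, with a difference of 0.92, and a search for the Snord symbols of the imprinted clusters found 0 rows with a single symbol. Genes of those clusters under other names were not searched for. The part of RNA recovery or labelling in these differences was not tested.

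The next comparison asked whether snoRNA genes follow time of day. In none of the tissues did a member pass the test for a 24-h rhythm (a joint limma F test of cosine and sine over 12 arrays, adjusted over all genes): 0 of 65 in SN/VTA, PFC, STR and HAB, against 0.162%, 0.179%, 0.0174% and 0.0174% of all genes. At an unadjusted p under 0.05 there were 5, 11, 3 and 2 members, against 1705, 2001, 1467 and 1089 of all 17274 genes. In PFC a stricter filter on low levels called 3 members of 54, with 77 genes called in all. Trended and robust variances called 4 of 65 members, with 231 genes called in all.

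In SN/VTA the smallest p were those of Snord15a and Snora20 (adjusted p = 0.384 each) and Snora74a (0.469), in STR those of Snora62 (0.461), Snord22 (0.47) and Snord88a (0.497), and in HAB those of Snora75 (0.669), Snora68 (0.77) and Snord16a (0.813). The smallest p in PFC belonged to Snora75, Snora44 and Snord13. Snora75 is an H/ACA gene in an intron of nucleolin (Ncl), a nucleolar protein of ribosome production. Its fitted amplitude in PFC was 0.29 ± 0.05 on the log2 scale, from mean to peak, with the peak at ZT11.5 (adjusted p = 0.0744). Its PFC levels were 5.73 and 5.85 at ZT3, 6.26 and 6.26 at ZT7, 6.25 and 6.43 at ZT11, 6.24 and 6.25 at ZT15, 5.82 and 6.04 at ZT19, and 5.74 and 6.00 at ZT23, so the pools of ZT7 to ZT15 lay above all those of the other times.

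Snora44 had an amplitude of 0.23 ± 0.04 with the peak at ZT3.8 (adjusted p = 0.0873). Snord13 had the largest amplitude of any member in PFC, 0.51 ± 0.10, a 2.03-fold swing with the peak at ZT14.8 (adjusted p = 0.0911). Its PFC means were 8.47 at ZT3, 8.73 at ZT7, 9.12 at ZT11, 9.37 at ZT15, 9.31 at ZT19 and 8.44 at ZT23. In STR the same gene ran between 6.16 and 6.94 with no such order.

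Over all tissues together, with tissue as a term, 1 of 65 members was called rhythmic, Snora75, against 5.55% of all genes. Its shared amplitude was 0.24 ± 0.06, a 1.39-fold swing from trough to peak, with the peak at ZT8.2 (adjusted p = 0.0389). In HAB the means were 6.07 at ZT3, 6.39 at ZT7, 5.98 at ZT11, 5.57 at ZT15, 5.57 at ZT19 and 5.48 at ZT23. In STR they ran from 6.05 to 6.55 and in SN/VTA from 6.13 to 6.62, and the replicates of a time overlapped those of other times. The next smallest p values were those of Snord22 (adjusted p = 0.161) and Snora31 (0.232). The host Ncl had a shared amplitude of 0.09 ± 0.02 (adjusted p = 0.0746), and the r of Snora75 with Ncl within tissues was 0.41.

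**Figure D5:**
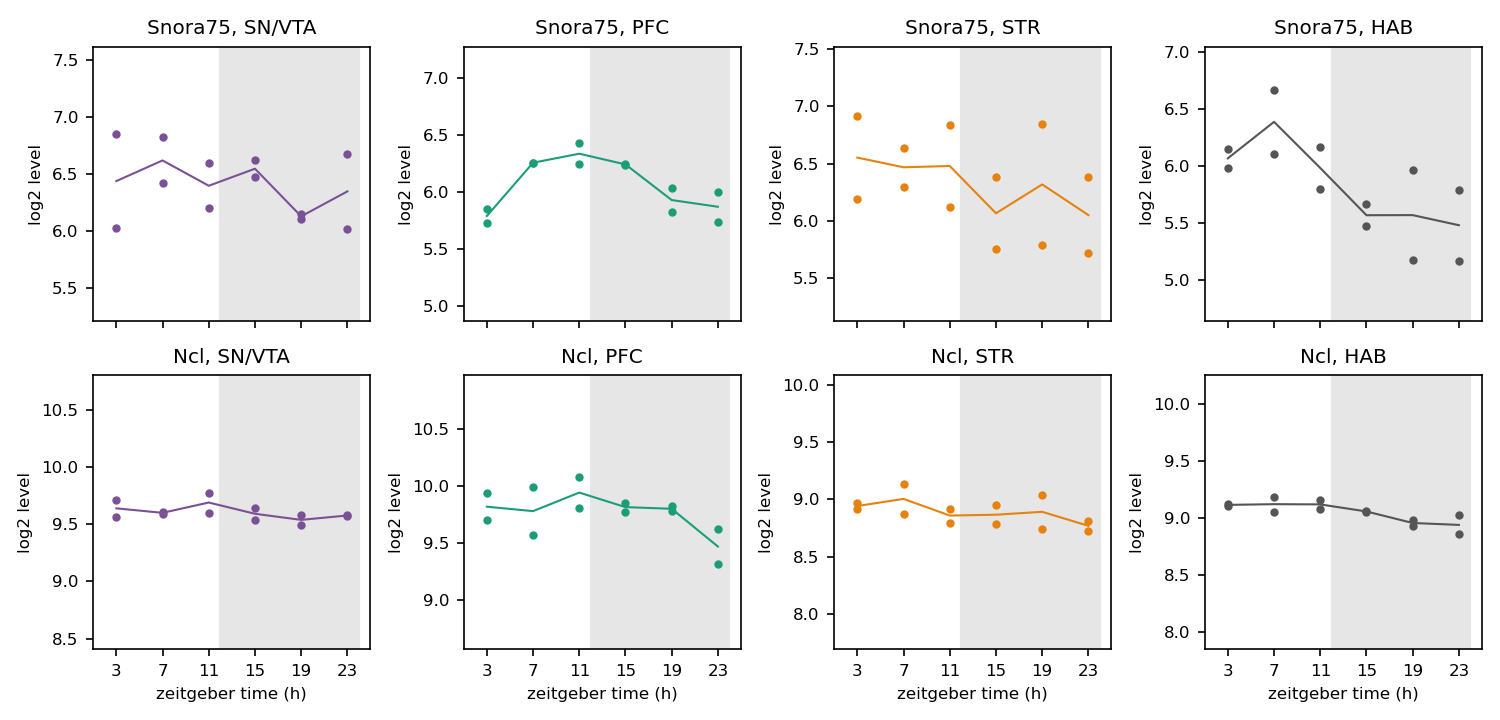
Log2 level (vertical axis, the same span in every panel) of Snora75 (upper) and its host Ncl (lower) against zeitgeber time (horizontal axis, h) in the 4 tissues, points for the arrays, lines through the means, grey for darkness. Means of Snora75 are highest at ZT7 to ZT15 in PFC and at ZT3 to ZT11 in HAB, and its replicates spread widely in STR and SN/VTA.

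The call of Snora75 was near its limit. Leaving out single arrays gave an adjusted p from 0.00875 to 0.0783, and 17 of the 48 arrays ended the call: in the first cycle SN/VTA ZT19, STR ZT7, ZT11 and ZT23 and HAB ZT7 and ZT23; in the second SN/VTA ZT7, ZT19 and ZT23, PFC ZT7, ZT11, ZT19 and ZT23, STR ZT19 and HAB ZT7, ZT11 and ZT19. Without the pair of HAB arrays that stood apart the adjusted p was 0.0643. Of the cell type lists, 3 of 5 oligodendrocyte and 2 of 3 endothelial markers passed the same shared test, and their part in this result was not tested.

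No member was called for rhythms that differ between tissues (0 of 65, against 0.0289% of all genes). The smallest p were those of Snord13 (0.013, adjusted 0.595), Snord15a and Snora7a. In the dark (ZT15, ZT19 and ZT23) against the light (ZT3, ZT7 and ZT11), 0 members were called higher or lower, against 1.82% and 2.01% of all genes. An unadjusted p under 0.05 was found for 6 of 65 members, all lower in the dark, against 2649 of all 17274 genes in either direction. These 6 members were led by Snora75 (-0.30 ± 0.10, adjusted p = 0.0749), Snora30 (-0.14 ± 0.05) and Snord16a (-0.15 ± 0.05). Without the pair of HAB arrays 2 others passed, against 526 of all genes. They were Snord71 at -0.17 (adjusted p = 0.00645) and Snord104 at -0.15 (0.0452).

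The 2 cycles served as the last comparison. No member was called between them in SN/VTA, PFC, STR or HAB (0 of 65 each, against 0%, 0%, 0% and 0.00579% of all genes in either direction). The smallest p were those of Snord61 (adjusted p = 0.303), Snora2b (0.363) and Snora28 (0.423) in SN/VTA, of Snord49a, Snord66 and Snord82 in PFC (0.999 each), of Snord73a (0.92), Snord90 and Snord47 (0.934 each) in STR, and of Snora35, Snora61 (0.407) and Snord53 (0.46) in HAB. The largest difference was that of Snora35 in HAB, with a mean of 8.59 ± 0.33 (SD, n = 6) in the first cycle and 7.36 ± 0.79 in the second (-1.23 ± 0.32, adjusted p = 0.325). It was lower in the second cycle at 5 of the 6 times, and passed with an adjusted p of 0.0208 at the lowest when either HAB array of ZT15 was left out.

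Snora35 moved with its host there. Htr2c, which is abundant in choroid plexus, had HAB means of 9.67 in the first cycle and 8.99 in the second, and the mean of the 5 choroid plexus markers was 9.73 and 8.02. Within the 12 HAB arrays Snora35 had r = 0.95 with Htr2c and 0.92 with the choroid plexus mean, given as a description of arrays that share these 2 cycles. In the other tissues r with Htr2c was 0.29 in SN/VTA, 0.36 in PFC and -0.55 in STR, and the choroid plexus mean had medians of 7.21, 6.37 and 6.89. The part of choroid plexus in the HAB levels of Snora35 was not tested.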

How the data were processed

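The authors' deposited values are log2 levels per probe set (range 1.09 to 13.65), and the sources used here do not name their background correction, summary or normalization. Per the labels' protocols, total RNA was isolated on RNeasy columns, which keep short RNAs incompletely, and the WT Pico kit then gave cDNA carrying biotin. Of 41345 rows, 23521 had 1 symbol, 1814 several and 16010 none; a gene with several rows was read from its brightest row on average, and genes with a mean of at least 5.05 (17274) were tested. Columns not used numbered 0. limma 3.58.1 in R 4.3.3 compared tissues in 1 fit with a mean for each of the 24 combinations of tissue and time (a tissue minus the average of the remaining 3), and was also used for the 24-h cosine and sine fits, dark against light, and cycle against cycle; figures were drawn with matplotlib 3.10.9 in Python 3.11.15. Scripts were tested on simulated data. All 65 members had a RefSeq entry, and that source was used for names, hosts and lengths.

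Members and lists were chosen with earlier results of these data known. Named by rule were the 8 highest and 8 lowest calls per tissue, and for the time and cycle tests up to 10 called members or the 3 smallest p. Other members named were chosen after their values were seen. The replicate number pairs samples because the labels' collection hours put replicate 1 in the first and replicate 2 in the second 24-h cycle. Residuals were taken from the mean of each tissue and time, so those of its 2 arrays are exact opposites (r = -1). For arrays sharing tissue and cycle (120 pairs), the average correlation of residuals was 0.036. The value for those of other cycles, -0.036, is fixed by the first and carries no further information. Arrays of different tissues from the same collection hour (72 pairs) also had 0.036. Alternatives were other scalings, filters and row rules, blocks, a factor for time, trended and robust variances, single cycles and single arrays left out.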

Additional observations from a re-analysis of the deposited data

How the results depend on the processing

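With the replicate block the counts of members called in SN/VTA, PFC, STR and HAB were 11, 26, 11 and 13, as without it, Snora75 kept its shared rhythm (adjusted p = 0.0468), and no other call changed. Leaving aside the 2 settings added after the data were seen (without the pair of HAB arrays, and without PFC), 526 of 563 counts stayed within 1.5 times their main value. Dropping the fold limit gave 49, 58, 50 and 47 members. The shared rhythm fell from 1 member to 0 with no filter (Snora75, adjusted p = 0.0541), with time as a factor and without the pair of HAB arrays. Members rhythmic in PFC were 3 with the stricter filter (Snora44, Snora75 and Snord13), where 77 genes in all were called. They were 4 with trended and robust variances (Snora31, Snora44, Snora75 and Snord110), where 231 genes in all were called. The first setting had fewer genes tested, and the cause was not otherwise tested. Without the pair of HAB arrays 2 members differed in the dark, against 526 of all genes. Without PFC the counts were 5 in SN/VTA, 4 in STR and 1 in HAB, and 7 of 35 called differences changed sign: 0.0714 for Snord22 and 0.61 for Snord110 in SN/VTA, 0.43 for Snord58b in STR, and 0.009 for Snord58b, 0.21 for Snord61, 0.15 for Snord22 and 0.02 for Snord111 in HAB. Leaving out single arrays gave 9 to 11 members in SN/VTA, 25 to 28 in PFC, 10 to 12 in STR and 11 to 14 in HAB. It gave 0 to 1 for the shared rhythm, 0 to 1 in the dark (1 without the first-cycle arrays of SN/VTA ZT3, PFC ZT3, STR ZT3, ZT19 and ZT23, HAB ZT11 and ZT19, or the second-cycle STR ZT11), 0 to 1 for rhythms in PFC (1 without the first-cycle ZT3 or ZT23) and 0 to 1 between cycles in HAB. Median centring moved the median of all genes from 0.05 to 0.20 in SN/VTA and from -0.02 to -0.12 in STR, and the SN/VTA count was then 8. No detection calls were used, so how far low levels lie above background is unknown.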
